A study of Mus musculus with 6 samples.

Results

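Genes of MHC class I and of the interferon response were followed in E14Tg2a, a mouse embryonic stem cell (ESC) line, as the cells were driven towards a neuronal fate. The genes were selected by their symbols, through a name pattern chosen with earlier results of these data known. It covered the H2 genes, the class I light chain and peptide transporters, the interferon receptors, and STAT and IRF factors. RNA sensors and the Ifit, Ifitm, Ifi, Isg and Oas families were covered as well. The pattern matched 91 of the 23235 entries of the RNA-seq table. Pluripotent ESCs were grown with leukemia inhibitory factor (LIF) and gave 3 samples. Neuronal cells (NCs) were monolayers of the same line, deprived of LIF and given 1 μM retinoic acid (RA) for 48 h, and gave the other 3 samples. All cultures contained fetal bovine serum and were between passages 37 and 40. Because LIF was withdrawn as RA was added, the effects of LIF loss, of RA and of time in culture cannot be told apart.

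The table holds 1 value per gene and condition, an FPKM (fragments normalised to transcript length and library size) estimated by Cuffdiff over the 3 replicates. Values of single replicates are therefore not given, no SD or p-value is attached to any level, and no difference was tested against replicate spread. A gene was called higher or lower when its FPKM was at least 1 in the higher condition and the conditions differed at least 2-fold. Bulk RNA cannot tell a smaller number of cells with a transcript from less of that transcript in every cell.

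MHC class I molecules present peptides from inside the cell to cytotoxic T lymphocytes. Each consists of a polymorphic heavy chain and the light chain B2m. It is loaded in the endoplasmic reticulum with peptides that the Tap1/Tap2 transporter has carried in. Proteasomes, among them the inducible immunoproteasome, cut these peptides. Interferons bind surface receptors and activate JAK kinases and STAT factors, which with IRF9 occupy interferon-stimulated response elements (ISREs) in promoters and switch on antiviral genes, while STAT dimers occupy gamma-activated sites (GAS). Pluripotent cells are known to respond weakly to interferon, yet to keep a subset of interferon-stimulated genes active.

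In ESCs the most abundant RNAs of the set came from the Ifitm genes, and in NCs these and a series of other interferon-stimulated genes were lower, whereas the classical class I heavy chains and B2m stood higher but within 2-fold. Of the 91 genes, 54 reached 1 FPKM in either condition, and the remaining 37 did not exceed 0.983 FPKM. Among those 54, 3 genes (5.56%) were called higher and 16 (29.6%) were called lower in NCs. Over all 13293 genes of the table that reached 1 FPKM in either condition, 12.5% were called higher and 10.6% lower. The median log2 ratio of NC to ESC was -0.45 over the 54 genes and -0.03 over the 13293. Of the 16 genes called lower, 8 were under 1 FPKM in NCs and had passed the limit only through their level in ESCs. Likewise, 1 of the 3 called higher, Ifit2, passed only through NCs.

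The scale of the columns bears on these counts. FPKM values summed to 770592 in ESCs and 628679 in NCs, and setting both columns to the same total moves every log2 ratio up by 0.29. On that scale the median ratio was -0.16 over the 54 genes and 0.26 over all genes. The calls then numbered 7 higher and 12 lower among the 54, beside 17.7% higher and 7.37% lower over all genes. H2-Q4, H2-Q8 and H2-T22 changed sign between the scales, with ratios close to 0 on each.

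**Figure D1:**
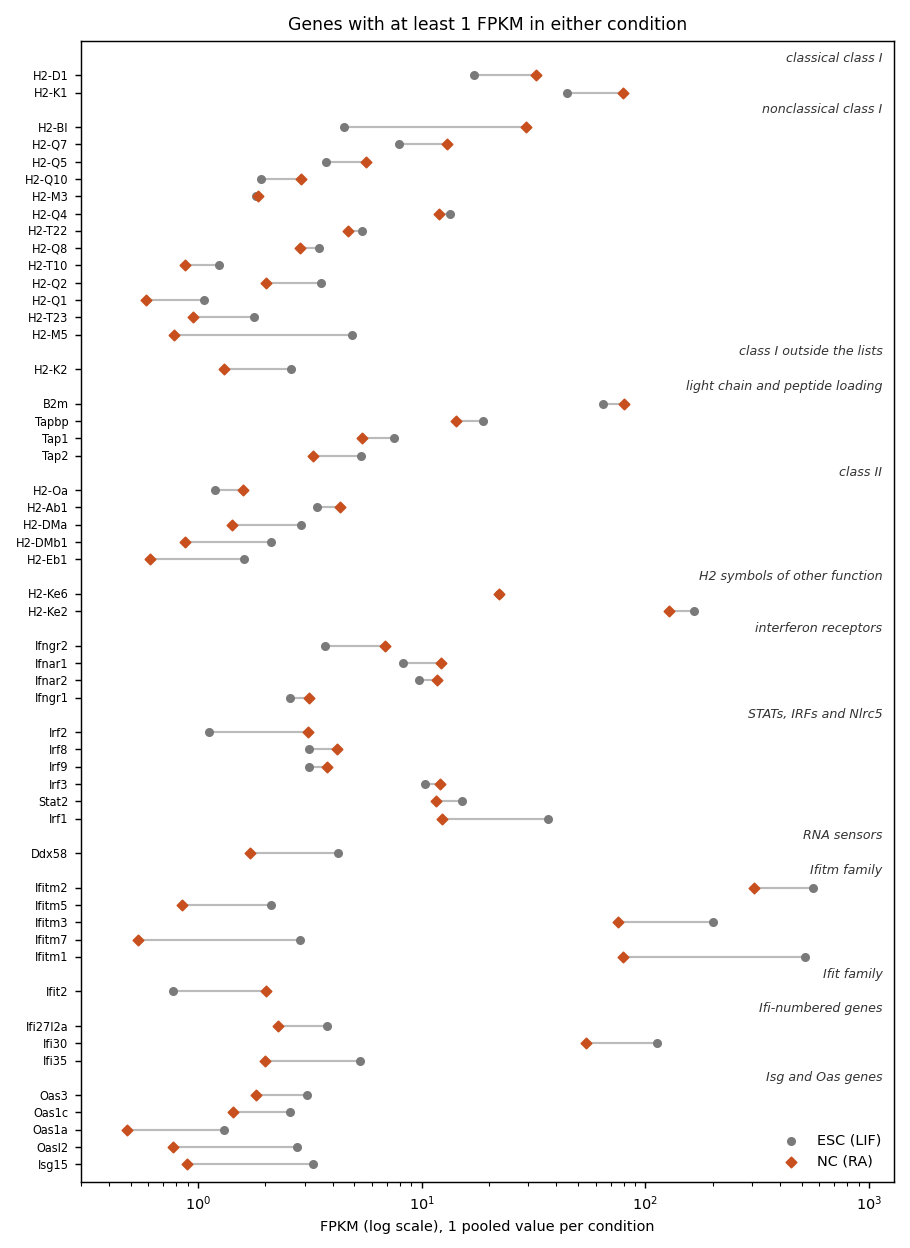
FPKM in ESCs (circles) and NCs (diamonds) of 52 genes of the set with at least 1 FPKM in either condition, on a log scale and grouped by role, with 1 pooled value per condition and no error bars. Ifitm1, Ifitm2 and Ifitm3 lie farthest to the right, and the diamonds of H2-K1, H2-D1 and H2-Bl lie to the right of their circles.

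Promoter sequences of 6 genes are shown to place the elements named above beside the expression values. They are the 250 bases before the transcription start, from RefSeq on GRCm38.p6, read 5′ to 3′ on the strand of the gene. Isg15 (chr4:156200819-156201068, minus strand) and Oas1a (chr5:120907526-120907775, minus strand) were called lower in NCs, Ifitm2 (chr7:140955962-140956211, minus strand) and B2m (chr2:122147437-122147686, plus strand) stayed within 2-fold, and Irf2 (chr8:46739495-46739744, plus strand) was called higher. Capitals mark matches to GAAANNGAA, the core of an ISRE, on either strand. In Irf1 (chr11:53769764-53770013, plus strand), called lower, they mark a match to the GAS-type palindrome TTCNNNGAA. Oas1a and Irf2 also hold matches to TTCNNNGAA, which are left unmarked.
Isg15: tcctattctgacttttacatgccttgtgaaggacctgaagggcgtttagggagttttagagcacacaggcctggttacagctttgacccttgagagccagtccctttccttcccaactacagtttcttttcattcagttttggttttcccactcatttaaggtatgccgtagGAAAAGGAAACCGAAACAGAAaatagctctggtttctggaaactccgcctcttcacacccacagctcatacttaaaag
Oas1a: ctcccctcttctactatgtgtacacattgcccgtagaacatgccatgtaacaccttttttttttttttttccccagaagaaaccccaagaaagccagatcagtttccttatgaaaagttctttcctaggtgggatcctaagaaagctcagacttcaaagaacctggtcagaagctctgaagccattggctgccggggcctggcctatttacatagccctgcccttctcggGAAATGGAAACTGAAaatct
Ifitm2: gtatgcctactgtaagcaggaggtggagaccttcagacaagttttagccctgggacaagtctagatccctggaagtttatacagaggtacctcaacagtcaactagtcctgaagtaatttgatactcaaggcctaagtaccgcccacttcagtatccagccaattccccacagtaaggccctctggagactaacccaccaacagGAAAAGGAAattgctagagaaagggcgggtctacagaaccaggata
B2m: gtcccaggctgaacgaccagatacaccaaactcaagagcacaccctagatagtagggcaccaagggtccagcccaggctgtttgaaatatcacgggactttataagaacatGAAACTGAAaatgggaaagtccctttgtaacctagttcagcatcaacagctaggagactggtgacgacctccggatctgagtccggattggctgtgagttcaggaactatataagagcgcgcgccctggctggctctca
Irf2: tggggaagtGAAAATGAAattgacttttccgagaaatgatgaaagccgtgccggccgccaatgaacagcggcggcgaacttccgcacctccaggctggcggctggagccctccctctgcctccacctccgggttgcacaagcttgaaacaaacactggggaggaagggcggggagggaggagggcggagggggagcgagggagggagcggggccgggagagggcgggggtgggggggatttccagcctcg
Irf1: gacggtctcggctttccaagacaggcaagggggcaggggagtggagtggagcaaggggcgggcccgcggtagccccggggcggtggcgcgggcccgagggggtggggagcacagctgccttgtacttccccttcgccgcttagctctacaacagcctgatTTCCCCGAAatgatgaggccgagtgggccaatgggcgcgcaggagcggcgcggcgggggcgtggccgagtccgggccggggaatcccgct
Isg15 held 3 overlapping ISRE-type matches, the first beginning 78 and the last 66 bases before the start. Oas1a held 2 overlapping matches within 20 bases of the start. The match in Ifitm2 began 46 bases, that in B2m 139 bases and that in Irf2 241 bases upstream. The GAS-type match of Irf1 began 90 bases upstream.

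A promoter window of 300 bases, from 250 before to 50 after the start, was available for 70 of the 91 genes. GAAANNGAA occurred on either strand in 20 of these 70 (28.6%), and in 9.76% of all 27025 genes with a window. For this motif the share was similar among genes called lower, within 2-fold and under 1 FPKM. The 2 windows of genes called higher are too few to compare. The motif lay in 4 of 15 genes called lower (26.7%; Ddx58, Ifitm3, Isg15 and Oas1a) and in 7 of 25 within 2-fold (28%). It was also found in 8 of 28 genes that stayed under 1 FPKM (28.6%), and in 1 of 2 called higher. TTCNNNGAA was present in 15 of the 70 windows (21.4%) and in 9.55% of all genes. CCAAT, the box bound by NF-Y, lay in 12 of 15 class I heavy chain windows (80%), against 41.1% of all genes. Such matches describe the letters in these windows and do not show that a factor was bound.

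Classical class I heavy chains carry peptides to T cells and are the main class I molecules of most tissues. H2-K1 (chromosome 17, 33996017 to 34000347) stood at 44.8 FPKM in ESCs against 79.6 FPKM in NCs, 1.78-fold higher. The level of H2-D1 (chromosome 17, 35262730 to 35267499) was 17.2 FPKM in ESCs against 32.6 FPKM in NCs, a 1.90-fold difference. Both thus lay just inside the 2-fold limit, and both passed it after scaling to equal totals, with log2 ratios of 1.12 and 1.22. B2m (chromosome 2, 122147686 to 122153083), the light chain shared by all class I molecules, measured 64.7 FPKM in ESCs against 80.0 FPKM in NCs, 1.24-fold higher. ESCs therefore already held heavy and light chain RNA at levels of the same order as those of NCs.

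Nonclassical class I genes encode less polymorphic heavy chains, several of which present special ligands to NK cells or restricted T cells. Of 19 in the table, 13 reached 1 FPKM, with 1 called higher, 1 called lower (7.69% each) and a median log2 ratio of -0.21. The shares over all genes were 12.5% and 10.6%. H2-Bl (chromosome 17, 36080115 to 36084223) had 4.50 FPKM in ESCs against 29.3 FPKM in NCs, a 6.51-fold higher level and the widest upward difference of the 54 genes. The opposite held for H2-M5 (chromosome 17, 36984061 to 36989537), with 4.91 FPKM in ESCs against 0.781 FPKM in NCs, 6.28-fold lower. H2-Bl and H2-M5 thus differed in opposite directions by about the same fold. H2-Bl is annotated as a polymorphic pseudogene, as are H2-Q5 and H2-T10, so its RNA need not stand for a functional heavy chain.

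Within the Q group, H2-Q7 read 7.92 FPKM in ESCs against 13.0 FPKM in NCs, 1.64-fold higher. H2-Q5 (3.74 and 5.67 FPKM) and H2-Q10 (1.92 and 2.89 FPKM) were each about 1.5-fold higher. H2-Q1 (1.06 and 0.585 FPKM) and H2-Q2 (3.56 and 2.02 FPKM) were 1.82-fold and 1.77-fold lower. The Q genes therefore did not move as a block. H2-Q4, at 13.4 FPKM in ESCs against 12.01 FPKM in NCs, and H2-Q8, at 3.49 and 2.85 FPKM, lay near equality.

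In the T group, H2-T23, which encodes Qa-1, the ligand of the CD94/NKG2A receptor of NK cells, was at 1.78 FPKM in ESCs against 0.947 FPKM in NCs, 1.88-fold lower. H2-T10 (1.24 and 0.872 FPKM) and H2-T22 (5.43 and 4.70 FPKM), ligands of some gamma-delta T cells, differed by less. H2-M3, which presents formylated peptides, was level at 1.82 FPKM in ESCs against 1.85 FPKM in NCs. H2-K2, a class I entry outside the classical and nonclassical lists, is annotated as a transcribed unprocessed pseudogene. It had 2.60 FPKM in ESCs against 1.30 FPKM in NCs and lay at the very edge of the limit. The other 6 nonclassical genes stayed at or under 0.366 FPKM, and 3 of them were listed at 0 in both conditions.

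Summed over all 22 class I heavy chain entries, annotated pseudogenes included, FPKM was 120 in ESCs and 191 in NCs, 1.59-fold higher. Without H2-Bl it was 116 and 162, 1.40-fold higher. The sum was carried by H2-K1, H2-D1 and H2-Bl, while 9 of the 16 genes that reached 1 FPKM had the lower value in NCs. Among those 9, H2-Q1, H2-T10, H2-T23 and H2-M5 were under 1 FPKM in NCs. They reached the limit only through ESCs, so the limit fixed their direction. Reads of class I genes are hard to assign. In the reference transcripts, 13 of 21 class I genes shared at least 5% of their 50-base words with another gene, up to 36.4% in H2-Q5. The figure was 9.63% for H2-K1, 12.8% for H2-D1, 9.4% for H2-Bl, 34.5% for H2-T22 and 32.9% for H2-T10, so their values are uncertain. The part of read assignment in these values was not tested.

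**Figure D2:**
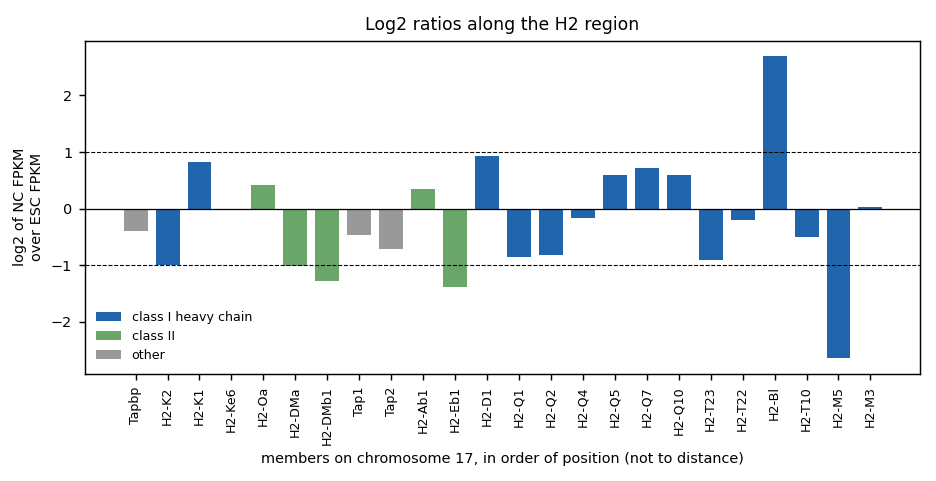
Log2 ratio of NC to ESC FPKM for 24 genes of the set on chromosome 17 with at least 1 FPKM in either condition, as bars in order of position and not to distance, coloured by class, with dashed lines at 2-fold. Bars of both signs occur along the region, with H2-Bl at 2.70 and H2-M5 at -2.65.

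Peptide loading depends on Tap1 and Tap2, the transporter subunits, and on Tapbp, tapasin, which bridges the transporter and the empty class I molecule. None of them was called, and each was lower in NCs. Tap1 was at 7.51 FPKM in ESCs against 5.43 FPKM in NCs, Tap2 at 5.33 and 3.26 FPKM, and Tapbp at 18.8 and 14.3 FPKM. The differences were 1.38-fold, 1.63-fold and 1.32-fold, opposite in direction to that of H2-K1, H2-D1 and B2m. Nlrc5, the transactivator of class I promoters, was scarce at 0.213 FPKM in ESCs against 0.211 FPKM in NCs.

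Other steps of antigen processing were taken from a list of 17 genes outside the name pattern, of which 15 reached 1 FPKM. Of these, 1 was called higher (6.67%, against 12.5% of all genes) and 2 lower (13.3%, against 10.6%). Psmb8, a catalytic subunit of the immunoproteasome, was 8.18-fold lower, at 10.8 FPKM in ESCs against 1.33 FPKM in NCs. Psmb10, another such subunit, was 3.81-fold lower, at 25.9 and 6.81 FPKM. The remaining one, Psmb9, was picked out after its values were seen and was 1.93-fold lower, at 9.53 and 4.93 FPKM; its locus overlaps Tap1 on the other strand. All 3 inducible catalytic subunits thus had the lower value in NCs. The chaperones Calr (276 and 233 FPKM), Canx (194 and 133 FPKM) and Pdia3 (126 and 158 FPKM) and the proteasome activator subunits Psme1 (97.1 and 65.9 FPKM) and Psme3 (95.6 and 87.3 FPKM) stayed within 2-fold, and Calr and Psme3 changed sign with equal totals.

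Class II molecules present peptides from endosomes and are normally made by professional antigen-presenting cells; they were caught by the H2 pattern although they are not class I genes. Of 9 entries, 5 reached 1 FPKM. Among those 5, 3 were called lower (60%, against 10.6% of all genes) and 0 higher (against 12.5%). H2-Eb1, a beta chain, had 1.60 FPKM in ESCs against 0.612 FPKM in NCs. H2-DMb1 (2.13 and 0.874 FPKM) and H2-DMa (2.88 and 1.43 FPKM) encode the chains of the peptide exchange factor and were 2.43-fold and 2.02-fold lower. H2-Eb1 and H2-DMb1 were under 1 FPKM in NCs and passed the limit only through ESCs. With equal totals H2-DMa and H2-DMb1 were no longer called. H2-Ab1 (3.39 and 4.30 FPKM) and H2-Oa (1.19 and 1.59 FPKM) had the higher value in NCs, within 2-fold. The other 4 did not exceed 0.837 FPKM. Cd74, the invariant chain that escorts class II molecules, was on the list outside the pattern and was called higher, at 2.77 FPKM in ESCs against 7.33 FPKM in NCs. H2-DMb1 shared 22.7% of its words with H2-DMb2, and H2-DMa overlaps Brd2 on the other strand.

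Markers of other cell types differed as well. Of 8 leukocyte markers 4 reached 1 FPKM, 3 of them (Cd68, Laptm5 and Cd3e) were called lower, and their summed FPKM was 39.7 in ESCs and 12.8 in NCs. Ptprc was listed at 0 in both conditions, and Lyz2 at 0 in ESCs, though a listed 0 can be a failed estimate. Fibroblast markers summed to 21.8 FPKM in ESCs against 47.6 FPKM in NCs, with 4 of 6 above 1 FPKM called higher and 1 lower, and endoderm markers to 32.8 and 55.2 FPKM, with 4 of 6 called higher. These 2 sums differed in the same direction as that of the class I heavy chains. The part of such cells in the differences was not tested. All 8 ESC markers were called lower and all 5 RA response genes higher. Of the 6 neural markers above 1 FPKM, Sox1 and Pax6 were called higher and Tubb3 lower, and Dcx, Neurog1 and Neurog2 stayed under 1 FPKM. Over all genes that reached 1 FPKM, 12.5% were called higher and 10.6% lower.

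A pair of H2 symbols belongs to genes of other function. H2-Ke2, a prefoldin subunit, was at 166 FPKM in ESCs against 128 FPKM in NCs, and H2-Ke6, a steroid dehydrogenase, at 22.1 FPKM in each.

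Interferon receptors were present in both conditions, and all 4 had the higher value in NCs without being called. Ifnar1 and Ifnar2 form the type I receptor. Ifnar1 was at 8.27 FPKM in ESCs against 12.2 FPKM in NCs, and Ifnar2 at 9.70 and 11.8 FPKM. Ifngr1 and Ifngr2 form the interferon-gamma receptor, with 2.59 and 3.13 FPKM for the former and 3.71 and 6.82 FPKM for the latter. Ifngr2 was 1.84-fold higher and was called with equal totals.

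The ligands themselves were scarce. Of 15 listed interferon and signalling genes outside the pattern 10 reached 1 FPKM. Of these, 2 were called higher (20%, against 12.5% of all genes) and 1 lower (10%, against 10.6%). Ifnb1 and Ifne were listed at 0 in both conditions, Ifng at 0 in ESCs and 0.0333 FPKM in NCs, and Ifnk at 0.0416 and 0.281 FPKM. A listed 0 can be a failed estimate, since Eef1a1, which every cell uses, is also listed at 0 in both columns. Jak2, a kinase of the interferon-gamma receptor and of many cytokine receptors, was 2.52-fold higher, at 4.50 FPKM in ESCs against 11.3 FPKM in NCs. Il10rb, a chain of the type III interferon receptor, was 2.58-fold higher, at 1.36 and 3.50 FPKM. Socs3, a feedback inhibitor of JAK signalling, was 9.47-fold lower, at 82.1 FPKM in ESCs against 8.67 FPKM in NCs.

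Among the factors that act downstream of the receptors, Irf1 and Irf2 differed in opposite directions. Irf1 (chromosome 11, 53770014 to 53778374) is an activator of class I and immunoproteasome genes, and it was at 36.6 FPKM in ESCs against 12.3 FPKM in NCs, 2.97-fold lower. Irf2 (chromosome 8, 46739732 to 46847458) can occupy the same elements and often acts as a repressor, and it was at 1.12 FPKM in ESCs against 3.09 FPKM in NCs, 2.77-fold higher. The Irf1 level thus exceeded that of Irf2 in both conditions, but by a smaller margin in NCs.

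Other factors of the pathway stayed within 2-fold or under 1 FPKM. Stat2 was at 15.2 FPKM in ESCs against 11.5 FPKM in NCs, and Irf9, its DNA-binding partner, at 3.14 and 3.79 FPKM. Irf3, which is activated by nucleic acid sensing, had 10.4 FPKM in ESCs against 12.1 FPKM in NCs, and Irf8, a myeloid factor, 3.14 and 4.17 FPKM. Irf7, the amplifier of type I interferon production, reached only 0.103 and 0.285 FPKM, Irf5 0.696 and 0.983 FPKM, and Irf4 0.0532 and 0.126 FPKM.

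RNA sensors detect viral RNA in the cytoplasm. Ddx58, which encodes RIG-I, was called lower, at 4.21 FPKM in ESCs against 1.71 FPKM in NCs, 2.46-fold. Ifih1, which encodes MDA5, was at 0.178 and 0.112 FPKM. Among 13 listed sensing genes outside the pattern, 7 reached 1 FPKM. Of these, 2 were called higher (28.6%, against 12.5% of all genes) and 1 lower (14.3%, against 10.6%). Trim25, a ubiquitin ligase that acts on RIG-I, was 2.01-fold lower, at 30.8 FPKM in ESCs against 15.3 FPKM in NCs. The adaptors Ticam1 (1.62 and 3.25 FPKM) and Traf3 (4.10 and 8.43 FPKM) were 2.01-fold and 2.06-fold higher. Trim25 was no longer called with equal totals, nor Ticam1 with a pseudocount of 0.1. Mavs (10.8 and 8.67 FPKM), Tbk1 (13.99 and 12.8 FPKM), Myd88 (4.63 and 5.81 FPKM) and Dhx58 (1.58 and 0.999 FPKM) stayed within 2-fold. Tbk1 changed sign with equal totals.

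The Ifitm genes encode small membrane proteins that block viral entry, and Ifitm1 and Ifitm3 are also known markers of pluripotent and germ cells. Ifitm1 (chromosome 7, 140967221 to 140969825) was at 518 FPKM in ESCs against 79.9 FPKM in NCs, 6.48-fold lower, moving from rank 187 to rank 1050 among the entries of the table. Ifitm3 (chromosome 7, 141009586 to 141010770) was at 201 FPKM in ESCs against 75.5 FPKM in NCs, 2.66-fold lower. Ifitm2 (chromosome 7, 140954837 to 140955987), the most abundant gene of the set in both conditions, was at 564 and 306 FPKM, 1.84-fold lower and not called. In ESCs, Ifitm1 and Ifitm2 were at nearly the same level, whereas in NCs Ifitm2 stood well above Ifitm1 and Ifitm3.

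Together these 3 genes made up 65.7% of the summed FPKM of the 91 genes in ESCs and 42.9% in NCs. The sum over the 91 genes was 1954 FPKM in ESCs against 1076 FPKM in NCs. Of the other 4 family members, Ifitm7 (2.86 and 0.540 FPKM) and Ifitm5 (2.12 and 0.850 FPKM), a bone gene, were called lower, 5.29-fold and 2.49-fold. Ifitm6 (0.308 and 0.0399 FPKM) and Ifitm10 (0.0512 and 0.0518 FPKM) were under 1 FPKM. All 5 Ifitm genes that reached 1 FPKM thus had the lower value in NCs, with a median log2 ratio of -1.41. Of the 5, 4 were called lower (80%, against 10.6% of all genes). Ifitm5 and Ifitm7 were under 1 FPKM in NCs and reached the limit only through ESCs, so the limit fixed their direction. Ifitm2 and Ifitm5 shared 48.5% and 25.3% of their words with other genes, mostly with Gm45717, an annotated gene that overlaps both on the same strand, so their values are uncertain. The shares were 5.02% for Ifitm1 and 10% for Ifitm3.

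**Figure D3:**
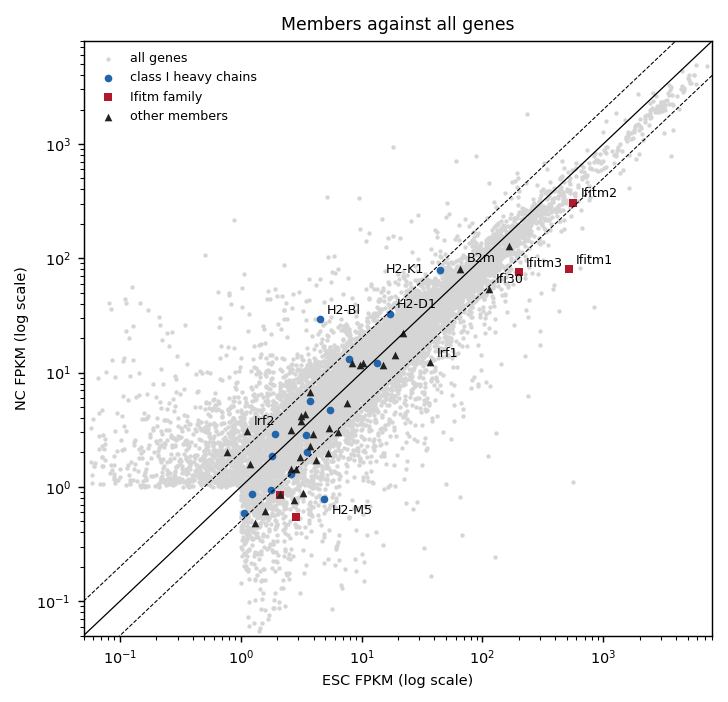
FPKM in NCs against FPKM in ESCs on log axes for genes with at least 1 FPKM in either condition and over 0.05 FPKM in both (grey), with class I heavy chains, the Ifitm family and the other genes of the set marked; the solid line is equality and the dashed lines are 2-fold. Ifitm1 and Ifitm3 lie below the lower dashed line at the right, H2-Bl above the upper one, and H2-K1, H2-D1 and B2m between the equality line and the upper one.

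The Ifit genes encode proteins that bind foreign RNA, and 1 of 3 reached 1 FPKM. Ifit2 was called higher, at 0.772 FPKM in ESCs against 2.02 FPKM in NCs, 2.62-fold. Ifit1 (0.174 and 0.102 FPKM) and Ifit3 (0.0209 and 0.0270 FPKM), strongly inducible genes in cells that answer interferon, were scarce.

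Of 12 Ifi-numbered genes 3 reached 1 FPKM. Ifi30, a lysosomal thiol reductase that unfolds antigens for presentation, was abundant, at 113 FPKM in ESCs against 54.1 FPKM in NCs, 2.08-fold lower, and it was not called with equal totals. Ifi35 was 2.67-fold lower, at 5.31 and 1.99 FPKM, and Ifi27l2a stayed within 2-fold at 3.78 and 2.29 FPKM. The other 9 did not exceed 0.595 FPKM. Ifi30 overlaps 6330537M06Rik on the other strand, and since the strandedness of the libraries is not given in the sources used here, reads of overlapping genes may be mixed.

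Isg15 encodes a ubiquitin-like protein that is attached to many targets after interferon treatment. It was at 3.28 FPKM in ESCs against 0.892 FPKM in NCs, 3.68-fold lower. The Oas genes encode oligoadenylate synthetases, which activate RNase L on sensing viral RNA, and related proteins. Of 12 Oas genes 4 reached 1 FPKM, all with the lower value in NCs. Oasl2 (2.78 and 0.772 FPKM) and Oas1a (1.31 and 0.482 FPKM) were called, 3.60-fold and 2.72-fold lower (50% of the 4, against 10.6% of all genes). Isg15, Oasl2 and Oas1a were under 1 FPKM in NCs and reached the limit only through ESCs, so the limit fixed their direction. Oas3 (3.08 and 1.82 FPKM) and Oas1c (2.58 and 1.43 FPKM) were 1.69-fold and 1.80-fold lower. The 9 Isg and Oas genes under 1 FPKM in both conditions did not exceed 0.892 FPKM. Oas1a shared 57.6% of its words with Oas1g, and its value is uncertain.

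Further interferon-stimulated genes lay outside the name pattern. Of 25 listed, 24 were in the table and 16 reached 1 FPKM, with 11 called lower (68.8%), 0 called higher and a median log2 ratio of -1.45. Over all genes that reached 1 FPKM, 10.6% were called lower and 12.5% higher. Among those called lower, Gbp3, Gbp7, Parp14, Xaf1 and Zbp1 were under 1 FPKM in NCs and passed the limit only through ESCs. Gbp2, a guanylate-binding GTPase, was at 17.1 FPKM in ESCs against 1.05 FPKM in NCs, 16.3-fold lower. Zbp1, a sensor of Z-form nucleic acids, was at 2.31 and 0.0899 FPKM, 25.7-fold lower, a fold that rests on an NC value near 0 (log2 ratio -4.68 as deposited and -3.67 with a pseudocount of 0.1). Bst2, tetherin, which holds budding virus at the membrane, was the most abundant of these genes, at 244 FPKM in ESCs against 83.9 FPKM in NCs, 2.91-fold lower. Abundant and scarce transcripts were thus both among those called lower.

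Other GTPases of the Gbp family, Gbp3 (3.45 and 0.362 FPKM) and Gbp7 (2.58 and 0.503 FPKM), were 9.52-fold and 5.12-fold lower. Irgm1 (4.61 and 1.32 FPKM), an immunity-related GTPase, the chemokine Cxcl10 (2.92 and 1.14 FPKM) and the pro-apoptotic Xaf1 (2.88 and 0.714 FPKM) were also called lower. So were Parp9 (7.11 and 3.18 FPKM) and its partner Dtx3l (4.14 and 1.87 FPKM), which share a bidirectional promoter, and Parp14 (2.01 and 0.464 FPKM). With equal totals Parp9 and Dtx3l were no longer called. The 5 others above 1 FPKM stayed within 2-fold. They were Eif2ak2 (137 and 109 FPKM), which encodes the kinase PKR, Samhd1 (20.1 and 21.2 FPKM), the RNA editor Adar (11.2 and 9.96 FPKM), Igtp (5.42 and 3.37 FPKM) and Lgals3bp (1.03 and 0.913 FPKM), and Adar and Lgals3bp changed sign with equal totals.

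Over all 4 lists outside the pattern, 48 of 69 genes reached 1 FPKM, 5 were called higher (10.4%) and 15 lower (31.2%), or 5 and 12 with equal totals. Beside these stand 12.5% higher and 10.6% lower over all genes, or 17.7% and 7.37% with equal totals. GAAANNGAA occurred in 7 of 12 promoter windows of those called lower (58.3%) and in 0 of 3 of those called higher. It lay in 17 of all 50 windows of the lists (34%) and in 9.76% of all genes. The 7 were Bst2, Cxcl10, Gbp2, Gbp3, Gbp7, Irgm1 and Trim25. Of the 15 called lower, 11 were on the list of interferon-stimulated genes. On that list Adar, Eif2ak2 and Igtp, which were not called, held the motif too. A link between motif and direction was not tested.

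**Figure D4:**
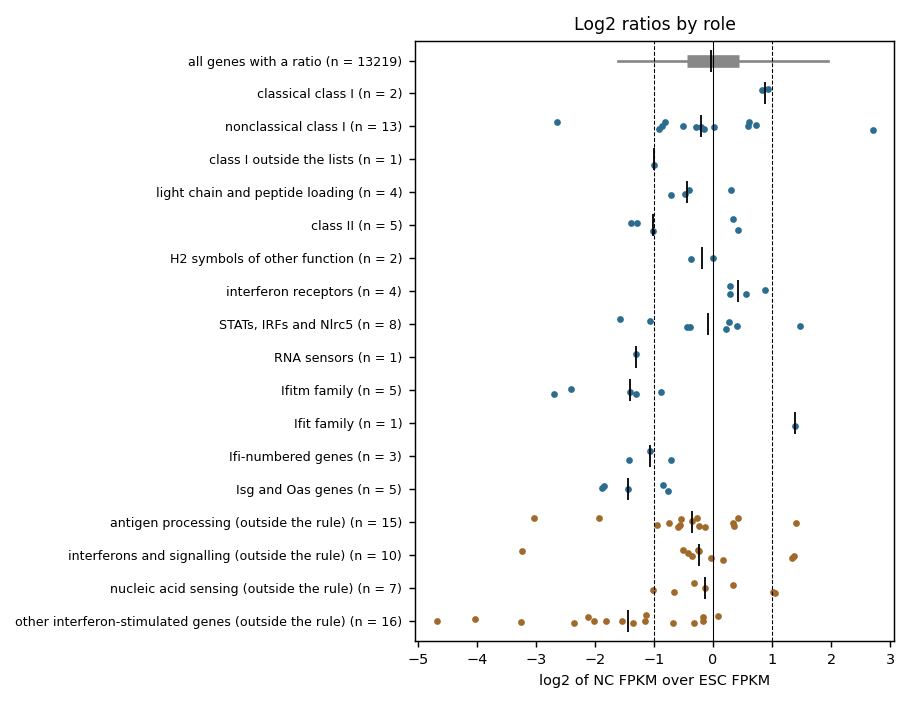
Log2 ratio of NC to ESC FPKM by role for genes of the set (blue points) and for the lists outside the name pattern (brown points), with black ticks at the medians and dashed lines at 2-fold; the grey bars span the middle 50% and 90% of 13219 genes with a ratio, without 74 listed at 0 in 1 condition. Medians lie at 0.42 for interferon receptors, -1.41 for the Ifitm family, -1.44 for Isg and Oas genes and -1.45 for other interferon-stimulated genes.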

How the data were processed

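RNA was measured in 3 ESC and 3 NC samples, grouped by their labels. Per the methods and the submitters' processing notes, the authors prepared TruSeq libraries, sequenced them on an Illumina instrument, aligned reads to mm10 with TopHat2 (version 2.0.8) on top of Bowtie2 (version 2.1.0), assembled transcripts with Cufflinks (version 2.0.2), merged them with Cuffmerge, and estimated levels with Cuffdiff. The Cuffdiff version, gene annotation release and strandedness are not given in the sources used here. The authors deposited 1 FPKM per gene and condition; the NC column is headed FPK and was read as FPKM. The deposited columns of the authors' own comparison (log2 fold change, test statistic, p-value, q-value and call) were not used.

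Genes were selected with the name pattern, and genes called by FPKM of at least 1 in the higher condition and a 2-fold difference, without a pseudocount. No test was possible on 1 pooled value per condition, so counts and medians are given beside those of all genes. Genes of the set that reached 1 FPKM are named, except that results for some genes are counted but not reported here; of the lists outside the pattern, called genes and up to 5 others with the highest FPKM are named. The name pattern, role lists and marker lists were chosen with earlier results of these data known.

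Depth per sample is unknown. Taking fragments of 200 bases, 1 fragment in a transcript of 1 kb was set at 0.0138 FPKM in ESCs against 0.0136 FPKM in NCs. These are medians of low values within a narrow range that was fixed in advance and was the same for both conditions. Their closeness therefore does not show equal depth, and the floor below rests on that range. Only 86 of 501 and 90 of 591 low values lay within it. A floor of 3 fragments (0.0413 and 0.0407 FPKM) covers counting error only, and 9 genes of the set lay under it in both conditions. Positions, overlaps and shared 50-base words came from GENCODE M21 on GRCm38, where 88 of 91 symbols matched (not H2-Ke2, H2-Q8 or Ifi27l1), and promoters from RefSeq on GRCm38.p6. The calling rule was tested on simulated data. Python 3.11.15, numpy 2.4.6, pandas 2.3.3 and matplotlib 3.10.9 were used. Alternatives were pseudocounts, FPKM limits, fold limits, centring, equal totals, handling of repeated names and a looser motif; an FPKM limit on the mean of both conditions was added after seeing the data.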

Additional observations from a re-analysis of the deposited data

How the results depend on the processing

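With the rule as reported, 3 genes of the set were called higher and 16 lower in NCs, and 5 and 15 of the genes outside the name pattern. A pseudocount of 1 gave 1 higher and 9 lower, and 2 higher outside the pattern. Without a limit on FPKM the counts were 9 higher and 29 lower, with 12 higher outside the pattern; an FPKM of at least 0.5 gave 8 higher outside it. With an FPKM of at least 5, 1 gene was higher and 6 lower, and 3 and 7 outside the pattern. A 1.5-fold limit gave 9 higher and 25 lower, and a 4-fold limit 1 and 3, with 0 and 8 outside the pattern. Equal totals gave 7 higher, the gains being H2-D1, H2-K1, H2-Q7 and Ifngr2, and 12 lower, the losses including H2-DMa, H2-DMb1 and Ifi30. The other counts stayed within 1.5 times those reported: a pseudocount of 0.1 dropped H2-DMa and Ticam1, centring on the median dropped H2-DMa and Trim25, equal totals dropped Dtx3l, Parp9 and Trim25 outside the pattern (12 lower), and a limit on the mean FPKM of both conditions, chosen after seeing the data, dropped Oas1a. The looser motif GAAANNGA raised the share of promoters with a match from 28.6% to 40%, and that of all genes from 9.76% to 23.4%. With GAAANNGA the share was 26.7% among genes called lower, 40% within 2-fold and 46.4% under 1 FPKM. The similarity of these groups thus did not hold with the looser motif. Log2 ratios of 74 genes (54 of the set above 1 FPKM and 20 called outside the pattern) were recomputed with pseudocounts, centring and equal totals. A pseudocount keeps the sign of a ratio, and both shifts are too small to reverse a 2-fold difference. Called genes could therefore not reverse direction, and these alternatives do not test it. No paired analysis was possible because the table holds 1 pooled value per condition; leaving out each replicate was not run for the same reason. Replicate spread is therefore unknown, and genes near 1 FPKM or near 2-fold are the least certain.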
